A study of Rattus norvegicus with 16 samples.

Results

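The mitochondrial chromosome, called MT in the count files, carries 35 of the 32552 genes counted at the implant–abdominal wall interface of rats. They are every gene whose chromosome entry reads MT, and no measured value decided which genes belong. The set was taken up with earlier results of these data known. The mitochondrial chromosome is a small circle that most cells hold in many copies. It encodes a few core subunits of the respiratory chain, the series of inner-membrane complexes that turns fuel into ATP, together with the tRNAs and rRNAs that translate them. Both of its strands are transcribed as long precursors that are cut into single RNAs, mostly at the tRNAs between the genes. All other subunits of the respiratory chain come from the nucleus, and skeletal muscle, the main tissue of the abdominal wall, is rich in mitochondria.

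The libraries came from abdominal wall of Sprague Dawley rats, labelled female and 12 weeks old. An adhesive implant (a polyurethane mock device on an adhesive layer of poly(acrylic acid) N-hydroxysuccinimide ester and poly(vinyl alcohol)) was compared with a non-adhesive implant, which was the same implant after swelling in phosphate-buffered saline and was held by sutures at its corners. Tissue was taken on day 3 or day 14, with 4 libraries for each of the 4 groups and 16 in all, and every rat carried an implant, so there is no native tissue among the samples. It is not stated that the libraries of a group came from separate rats, and the p values reflect no more than how far these libraries differ, which may be technical.

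Library totals were 18616084 to 24858976 counts on day 3 and 13852126 to 16801635 on day 14. Every day 14 library was smaller than every day 3 library, so day and any batch that follows the day cannot be told apart. The MT genes received 822026 to 1279956 counts per library, and the 95% Wilson interval of the MT share was at most 0.0150 percentage points to either side, which covers counting error only.

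The files give each gene by an identifier, a position and a strand, with no symbol. In mammals the order and strand of the mitochondrial genes are fixed, and all 35 genes match that order in strand and in being longer or shorter than 200 bases. Each gene is therefore called here by its place, so that COX1 means the gene at the place of cytochrome c oxidase subunit I. There are 13 protein-coding places and 22 tRNA places. None of the 35 genes lies at the places of both rRNAs, MT 68 to 1025 and MT 1094 to 2664. The MT counts given here therefore include no rRNA gene. COX1 (ENSRNOG00000034234) lies at MT 5323 to 6867 on the plus strand and is 1545 bases long, and ND4L (ENSRNOG00000031053), a small subunit of complex I, lies at MT 9870 to 10166 on the plus strand and is 297 bases long. Coordinates are those of the files. The paper names mRatBN7.2 as the reference and the labels name another build.

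Within the MT total, the protein-coding genes held nearly all counts. The tRNA genes held 0.237 to 0.414% of the MT counts of a library. COX1, a catalytic core subunit of complex IV, took the largest share, 33.1 to 37.6% of the MT total. COX3, another core subunit of complex IV, took 13.2 to 15.6%. The share of ATP6, a membrane subunit of the ATP synthase, was 9.84 to 11.9%, that of COX2, the third mitochondrial subunit of complex IV, was 8.96 to 11.2%, and that of CYTB, the cytochrome b of complex III, was 8.87 to 10.9%. Summed by complex, the 3 complex IV genes held 56.6 to 61.3% of the MT total, the 7 complex I genes 16.9 to 19.4%, the 2 ATP synthase genes 11.5 to 12.96% and the 1 complex III gene 8.87 to 10.9%.

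The complex I genes were spread over a wide range. ND2 held 5.22 to 6.55% of the MT total, ND1 4.37 to 5.11% and ND5 2.43 to 4.09%. ND3 held 1.09 to 2.18%, ND6 0.861 to 1.56%, ND4 0.616 to 0.854% and ND4L 0.362 to 0.768%. ATP8, the short partner of ATP6 in the ATP synthase, held 1.05 to 1.77%. COX1 varied least among libraries, with a coefficient of variation of 3.75% over all 16, whereas ND3 and ND4L varied by 21.0% and 20.1%.

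**Figure D1:**
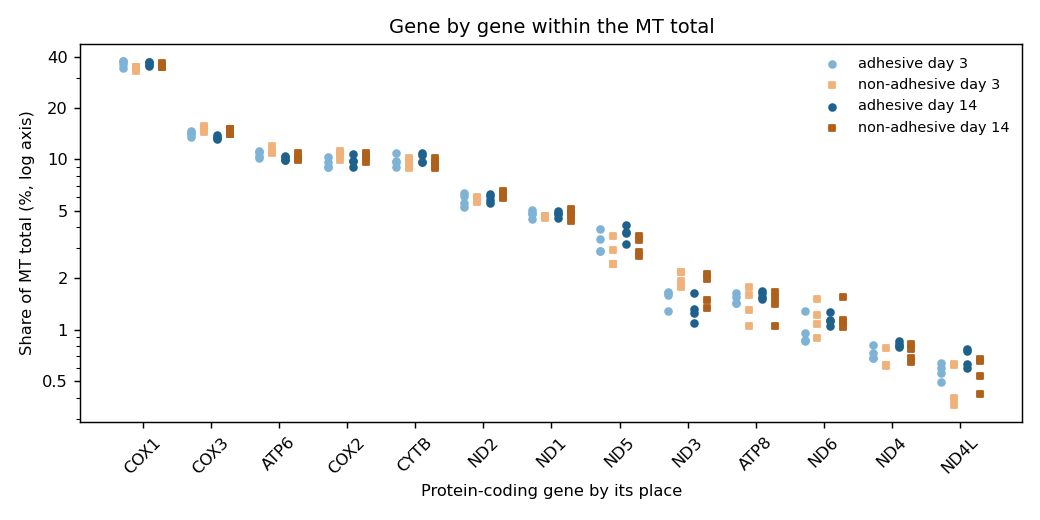
Share of the MT total (percent, log axis) held by each of the 13 protein-coding genes, 1 point per library, 4 libraries in each group. COX1 lies at 33.1 to 37.6% in all 16 libraries ND4L at 0.362 to 0.768%, and the groups overlap for most genes.

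Levels of different genes are set side by side here per length, as CPM per kb, the counts per kilobase of gene for each 1000000 counts of the library. COX1 was first and COX3 second in each of the 16 libraries, with means of 13328 and 10521 CPM per kb. ATP6 (8974) and COX2 (8498) followed and changed places between libraries, ATP6 being above COX2 in 12 of 16. CYTB (4962 CPM per kb) was below these 4 and above all others in every library. ATP8 (4195) was above ND2 (3324) in 14 of 16 libraries, ND2 was above ND1 (2866) in all 16, and ND1 was above ND3 (2726) in 10 of 16. ND6 (1297) and ND4L (1137) were each above the other in 8 libraries, so their order was not fixed, and ND4L was above ND5 (1032) in 13.

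ND4 was last in all 16 libraries, with a mean of 312 CPM per kb. The level of COX1 per kilobase was 37.2 to 50.1 times that of ND4. ND4, a large membrane subunit of complex I, shares its transcript with ND4L and overlaps it by 7 bases, yet its level per kilobase was 0.211 to 0.371 times that of ND4L. ND5, the next protein-coding place downstream on the same strand, was 2.93 to 3.73 times as high as ND4 per kilobase. Of the other pair that overlaps on 1 strand, ATP8 was 0.293 to 0.573 times as high as ATP6 per kilobase, with 43 shared bases. How reads in shared bases or reads that also match nuclear copies of mitochondrial DNA were counted is not given in the sources used here, and its part in these levels was not tested. ATP8 and ND4L are only 204 and 297 bases long, against 681 for ATP6 and 1378 for ND4. Division by the whole gene length may not make such short genes comparable with longer ones, which was not tested either.

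The minus strand carries 9 of the 35 genes, of which ND6, a complex I subunit, is the only protein-coding one. These 9 genes held 1.18 to 1.96% of the MT total. Among the tRNA genes, however, the 8 on the minus strand held 94.2% of the tRNA counts summed over libraries and the 14 on the plus strand the rest. The 3 tRNA genes with the most counts, tRNA-Ser-1 (517 to 3214 counts), tRNA-Pro (628 to 1205) and tRNA-Asn (439 to 1020), are all on the minus strand and held 88.5% of the tRNA counts. No strand setting is given for the counting, and counts of a minus-strand gene cannot be told apart from reads of the plus-strand precursor that runs across it. The libraries were enriched with oligo(dT) beads, which favour RNAs with a poly(A) tail.

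Of the 35 genes, 23 passed the filter on low counts (edgeR's filterByExpr), namely the 13 protein-coding and 10 tRNA genes. The other 12 tRNA genes had at most 8 counts in any library. The gene just inside the filter was tRNA-Phe, at MT 1 to 67, with 5 to 38 counts, and just outside it lay tRNA-Thr with 0 to 8 and tRNA-Gln with 0 to 6. tRNA-Ser-2 had a count of 0 in all 16 libraries, which allows up to 3 counts in each.

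The share of a library that fell on the MT chromosome was higher on day 14 than on day 3 under both implants and overlapped between the implants on each day. This share sums over the genes and is given without a test. In libraries 1 to 4 of the adhesive implant it was 5.73, 4.42, 4.76 and 4.29% on day 3 and 8.94, 6.74, 6.27 and 6.48% on day 14. In those of the non-adhesive implant it was 3.92, 5.85, 4.62 and 4.96% on day 3 and 5.37, 6.495, 5.65 and 8.22% on day 14. All 4 adhesive libraries of day 14 were above all 4 of day 3, whereas under the non-adhesive implant replicate 2 of day 3 lay above replicates 1 and 3 of day 14.

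**Figure D2:**
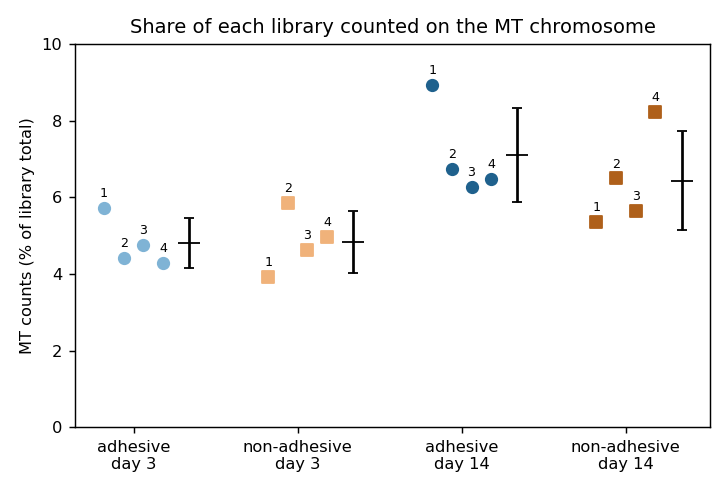
MT counts as a percentage of the library total, 1 point per library with its replicate number, and beside each group the mean with its SD (n = 4). The adhesive libraries lie at 4.29 to 5.73% on day 3 and at 6.27 to 8.94% on day 14 without overlap, and the non-adhesive groups overlap.

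The group means were 4.80% ± 0.651 (SD, n = 4) and 7.11% ± 1.24 under the adhesive implant and 4.84% ± 0.803 and 6.43% ± 1.29 under the non-adhesive implant, on days 3 and 14. The mean of day 14 was 1.48 times that of day 3 under the adhesive implant, a difference of 2.31 percentage points, and 1.33 times under the non-adhesive implant, a difference of 1.60 points. Without replicate 4 of day 14 the non-adhesive difference was 1.00 points. The adhesive mean minus the non-adhesive mean was −0.037 points on day 3 and 0.674 on day 14, both smaller than the SD of either group.

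A share depends on what else is in the library. The 10 most abundant genes off the MT chromosome took more of the counts on day 14, and without them the difference between days was 3.83 points under the adhesive and 2.83 under the non-adhesive implant. After TMM scaling (trimmed mean of M values, which sets the bulk of genes equal between libraries) it was 5.01 and 3.64 points. In bulk tissue, fewer cells of a type and less RNA per cell cannot be told apart.

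To compare the MT genes one by one between days, counts were scaled by TMM and tested across all genes with edgeR's quasi-likelihood test. A gene was called where its p value, adjusted by Benjamini-Hochberg, did not exceed 0.05 and its log2 fold change was 1 or more in size. On this scale, in CPM (counts for each 1000000 of the scaled total), COX1 stood at 19870, 13290, 15800 and 11630 in the adhesive libraries 1 to 4 of day 3 and at 47640, 25840, 29520 and 30000 on day 14. In the non-adhesive libraries COX1 stood at 9186, 19210, 12900 and 14190 CPM on day 3 and at 18240, 22860, 20930 and 46200 on day 14. The adhesive groups did not overlap, and the non-adhesive groups overlapped through replicate 2 of day 3 and replicate 1 of day 14.

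COX1 rose by a log2 fold change of 1.13 (SE 0.36, adjusted p = 0.0456, edgeR) under the adhesive implant. Under the non-adhesive implant its value was 0.96 (SE 0.36, adjusted p = 0.0741, edgeR), which did not pass. ND4L was the protein-coding gene with the largest log2 fold change in both comparisons. It stood at 371, 174, 234 and 191 CPM in the adhesive libraries of day 3 and at 799, 460, 611 and 609 on day 14. In the non-adhesive libraries it stood at 176, 202, 149 and 255 CPM on day 3 and at 353, 348, 374 and 554 on day 14. ND4L did not overlap between the days under either implant, with log2 fold changes of 1.35 (SE 0.27, adjusted p = 0.00672, edgeR) and 1.06 (SE 0.26, adjusted p = 0.0157, edgeR).

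Under the adhesive implant, 12 of the 23 tested MT genes were called, all higher on day 14, against 4.39% of all genes tested that were called higher and 8.12% called in either direction. They were 9 protein-coding genes (ND1, ND2, COX1, COX2, ATP8, ND4L, ND4, ND5 and CYTB) and tRNA-Met, tRNA-Asn and tRNA-Cys. The 13 protein-coding genes all had positive log2 fold changes, from 0.89 for ND3 to 1.35 for ND4L, with a median of 1.19 against −0.01 over all genes. COX3 (1.08, adjusted p = 0.0501), ATP6 (1.05, 0.069), ND6 (1.31, 0.0745) and ND3 (0.89, 0.112) did not pass in edgeR. On the TMM scale the groups did not overlap for 16 of the 23 genes, the 13 protein-coding ones among them, all higher on day 14, against 12.6% of all genes. As plain shares of the library, 9 of the 23 were higher without overlap, against 3.9% of all genes.

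Under the non-adhesive implant, 6 of the 23 were called, all higher, against 5.32% of all genes called higher and 9.07% in either direction. They were ND4L, ND4 (1.04, adjusted p = 0.0473, edgeR), ND5 (1.03, adjusted p = 0.049, edgeR) and the same 3 tRNA genes as under the adhesive implant. Of the 8 runs that left out 1 library, the call of ND5 was lost in 8 and that of ND4 in 6. The call of tRNA-Met was lost in 5, that of ND4L in 1 and those of tRNA-Asn and tRNA-Cys in 0. ATP8 passed the adjusted p (0.0304, edgeR) with a log2 fold change of 0.87. The 13 log2 fold changes ran from 0.78 for ND3 to 1.06 for ND4L, with a median of 0.96 against 0.04 over all genes. The groups did not overlap for 11 of the 23 genes, 6 of them protein-coding, against 9.14% of all genes. As plain shares of the library, 6 of the 23 were higher without overlap (ATP8, ND4L, ND4, ND5, tRNA-Met and tRNA-Cys), against 3.14% of all genes.

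tRNA-Asn had the lowest adjusted p of all MT genes in both comparisons between days. It stood at 40.5, 24.6, 39.3 and 33.4 CPM in the adhesive libraries of day 3 and at 103.9, 77.2, 74.8 and 59.4 on day 14. In the non-adhesive libraries it stood at 27.6, 21.0, 24.7 and 22.8 CPM on day 3 and at 47.6, 57.1, 53.0 and 62.0 on day 14. The days did not overlap under either implant, and the log2 fold change was 1.19 in both (SE 0.18, adjusted p = 0.00203 and 0.00124, edgeR). tRNA-Ser-1, the tRNA gene with the most counts, did not pass, with values of 0.99 and 1.07, and the second was −0.28 without replicate 4 of non-adhesive day 14. tRNA-Met (1.33 and 1.29) and tRNA-Cys (1.21 and 1.36) rested on 27 to 60 and 52 to 125 counts per library.

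These counts depended on single libraries and on the scaling. The 12 calls under the adhesive implant became 1 without replicate 1 of day 14, 3, 5 and 4 without replicates 2, 3 and 4 of day 3, and 7 and 5 without replicates 3 and 4 of day 14. The 6 calls under the non-adhesive implant became 2 without replicate 1, 2 without replicate 3 and 3 without replicate 4 of day 3, and 3 and 2 without replicates 3 and 4 of day 14. With library totals and no TMM factor, 0 of 23 were called under either implant in edgeR, 16 and 10 had an unadjusted p under 0.05, against 52.8% and 41.8% of all genes, and 12 and 3 passed the adjusted p but not the fold limit. On that scale 17.8% and 11.9% of all genes were called. DESeq2 with its own size factors called 17 and 7. Shares of all genes are not given here for the adjusted p with library totals, for DESeq2 or for runs without 1 library. The counts of MT genes in these settings therefore show only that the calls depended on the setting. With library totals the protein-coding medians were 0.62 and 0.45 while the medians over all genes were −0.58 and −0.39. Relative to all genes the difference was 1.19 and 0.84, beside 1.20 and 0.92 with TMM.

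**Figure D3:**
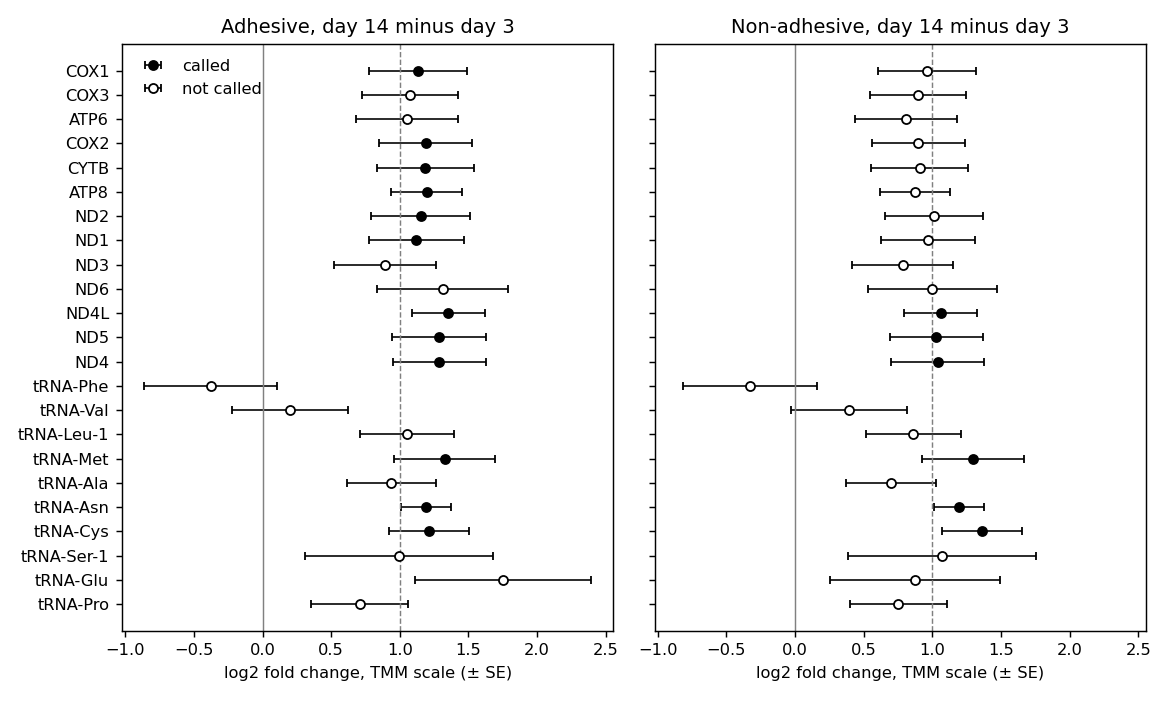
Log2 fold change of day 14 over day 3 on the TMM scale for the 23 tested MT genes, with its SE, for the adhesive (left) and the non-adhesive implant (right). Filled points were called in edgeR and the dashed line marks a log2 fold change of 1. The 13 protein-coding genes lie between 0.89 and 1.35 on the left and between 0.78 and 1.06 on the right, and tRNA-Phe lies below 0 in both.

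Between the implants, no MT gene was called on either day. On day 3, edgeR called 0 of 23 MT genes and 0 of 14223 genes in all (0%). Of the MT genes 1 had an unadjusted p under 0.05, against 7.19% of all genes. It was tRNA-Asn, with a log2 fold change of adhesive over non-adhesive of 0.52. The protein-coding values ran from −0.37 for ND3 to 0.31 for ND4L, with a median of 0.11 that turned to −0.14 without adhesive replicate 1 and to −0.02 without non-adhesive replicate 1. The implants overlapped for all 23 genes both in TMM values and in library shares, against 4.07% and 3.74% of all genes that did not overlap. On day 14, edgeR called 0 of 23 against 0.266% of all genes, and 3 had an unadjusted p under 0.05, tRNA-Asn (0.52), tRNA-Ala (0.87) and ND4L (0.60), a share no larger than the 15.9% of all genes. The protein-coding values ran from −0.26 for ND3 to 0.60 for ND4L. In TMM values the implants overlapped for all 23 genes on day 14 as well, against 8.64% of all genes that did not overlap. In library shares 2 of the 23, ATP8 and ND4L, were higher at the adhesive interface without overlap. Of all genes, 7.59% did not overlap in either direction, a share near that of the MT genes. DESeq2 and limma-voom called 0 on both days, but their shares of all genes are not given here. All 7 named fibroblast and matrix genes had negative values between the implants on both days. Their medians were −1.13 and −1.53, against −0.01 and −0.04 over all genes. In edgeR, 0 of the 7 passed an adjusted p of 0.05 on day 3 and 1 on day 14, against 0% and 0.111% of all genes lower. These 7 genes were listed with earlier results of these data known, so their common direction is no independent result. The 4 named muscle fibre genes had medians of 0.19 on day 3 (3 positive) and 1.04 on day 14 (4 positive). In edgeR, 0 of these 4 passed on either day, against 0% and 0.162% of all genes higher. They too were listed with earlier results of these data known. The part of either list in the MT values was not tested.

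The change between days was not shown to differ between the implants. The difference of the log2 fold changes, adhesive minus non-adhesive, was positive for all 13 protein-coding genes, from 0.11 for ND3 to 0.32 for ATP8. These 13 values come from the same 16 libraries and most of them from 1 precursor. The SE of each was 0.36 or more, no MT gene had an unadjusted p under 0.05, and edgeR called 0 of 23 against 0.00685% of all genes. DESeq2 and limma-voom also called 0 of 23, but their shares of all genes are not given here. Without replicate 1 of adhesive day 14 the median of the 13 was −0.02.

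To ask which genes moved against the rest of their chromosome, the same edgeR test was run with the MT total of each library in place of its size. In this scale a change shared by all MT genes drops out. Under the adhesive implant 1 of 23 genes was called between days. It was tRNA-Phe (ENSRNOG00000031780), the first gene of the plus-strand precursor, which fell by 1.498 on the log2 scale (SE 0.49, adjusted p = 0.0168, edgeR). It rested on 18, 25, 38 and 22 counts in the adhesive libraries of day 3 and on 10, 16, 5 and 9 on day 14, with no overlap. Of the 23 genes, 3 did not overlap between the days, all lower (tRNA-Phe, tRNA-Val and tRNA-Pro), against 59% of all genes in either direction. On this scale 52.7% of all genes were called, since genes off the chromosome are then read against the MT total. The adjustment ran over all genes tested, of which 70.8% had an unadjusted p under 0.05, so it raised p values little. For tRNA-Phe the unadjusted p was 0.00795 (edgeR). No adjustment over the 23 MT genes alone was made, so the call is not read as a result for tRNA-Phe.

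The call of tRNA-Phe was lost without replicate 3 of day 3 or replicate 1 of day 14. Under the non-adhesive implant tRNA-Phe had 27, 23, 34 and 8 counts on day 3 and 6, 14, 7 and 11 on day 14, which overlap, and a value of −1.26 (adjusted p = 0.0549, edgeR). There 0 of 23 were called against 25.6% of all genes, and 1 had an unadjusted p under 0.05, against 49.6% of all genes. DESeq2 called 1, with no share of all genes given here. tRNA-Pro, the last gene on the chromosome, had a value of −0.42 under the adhesive implant (adjusted p = 0.0356, edgeR, against 65.8% of all genes at this p), within the fold limit. Its share of the MT total was 0.0937 to 0.110% on day 3 and 0.0685 to 0.0856% on day 14, without overlap.

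The protein-coding genes kept close to one another across days. Relative to the MT total, their log2 fold changes ran from −0.23 for ND3 to 0.26 for ND4L under the adhesive implant and from −0.21 to 0.18, for the same genes, under the non-adhesive implant. None of the 13 passed, and the groups of both days overlapped in share for all 13 under the adhesive implant. COX1 was the 1 MT gene whose share did not overlap between the days under the non-adhesive implant, against 32.1% of all genes, at 33.1 to 34.6% on day 3 and 34.8 to 36.6% on day 14.

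Between the implants, ND3 and COX3 were each lower in share of the MT total at the adhesive interface on 1 day without overlap, ND3 on day 3 and COX3 on day 14. Each was the 1 gene of 23 to do so on its day, against 1.57% and 3.95% of all genes in either direction. For COX3 this is near the share of all genes, and for ND3 it is 1 gene. Neither count is read as a difference between the implants. The share of ND3, a small membrane subunit of complex I, was 1.29, 1.65, 1.66 and 1.60% in the adhesive libraries of day 3 and 1.94, 2.172, 2.18 and 1.78% in the non-adhesive ones. All 4 adhesive libraries were below all 4 non-adhesive ones, with a log2 fold change of −0.38 (SE 0.19, unadjusted p = 0.0717 and adjusted p = 0.9999, edgeR). On day 14 the share of ND3 was 1.09, 1.63, 1.32 and 1.25% against 1.501, 2.00, 1.34 and 2.12%, which overlap, with a value of −0.39 (SE 0.19, adjusted p = 0.525, edgeR).

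The share of COX3 on day 14 was 13.2, 13.9, 13.2 and 13.5% in the adhesive and 14.0, 15.1, 14.1 and 15.0% in the non-adhesive libraries. These groups did not overlap, but the log2 fold change was only −0.11 (SE 0.09, adjusted p = 0.565, edgeR). On day 3 it was 13.4 to 14.6% against 14.3 to 15.6%, which overlap. No MT gene had an unadjusted p under 0.05 between the implants on this scale on either day, and 0 of 23 MT genes and 0% of all genes were called.

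Libraries of 1 group differed from each other more in some genes than the groups did. Replicate 2 of the non-adhesive implant on day 3 and replicate 4 of the non-adhesive implant on day 14 stood apart. They had the highest ND6 shares of all 16 libraries, 1.52 and 1.56%, and the highest tRNA-Ser-1 counts, 2526 and 3214. They also had the lowest ATP8 shares (both 1.05%) and the lowest tRNA-Asn shares (0.0377 and 0.0466%). The other 14 libraries had ND6 shares of up to 1.29% and tRNA-Ser-1 counts of up to 1482.

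ND6 per kilobase was 2.21 and 2.03 times as high as ND5, its overlapping neighbour on the other strand, in these libraries, and 0.963 to 1.755 times as high in the other 14, where the median was 1.109 and replicate 3 of non-adhesive day 3 was the highest. Both were the libraries with the highest MT share of their group. With both left out, 2 of 23 genes were called between days under the non-adhesive implant, tRNA-Asn and tRNA-Cys, against 7.22% of all genes called higher and 11.4% in either direction, a share near that of the MT genes. The protein-coding median was then 0.74, and the difference in MT share was 1.34 points. Under the adhesive implant the libraries with the highest MT share, replicate 1 of day 3 and replicate 1 of day 14, had ND6 shares of 1.29 and 1.27%, again the highest of their groups. No other protein-coding gene had its highest share of the MT total in the library with the highest MT share in all 4 groups.

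**Figure D4:**
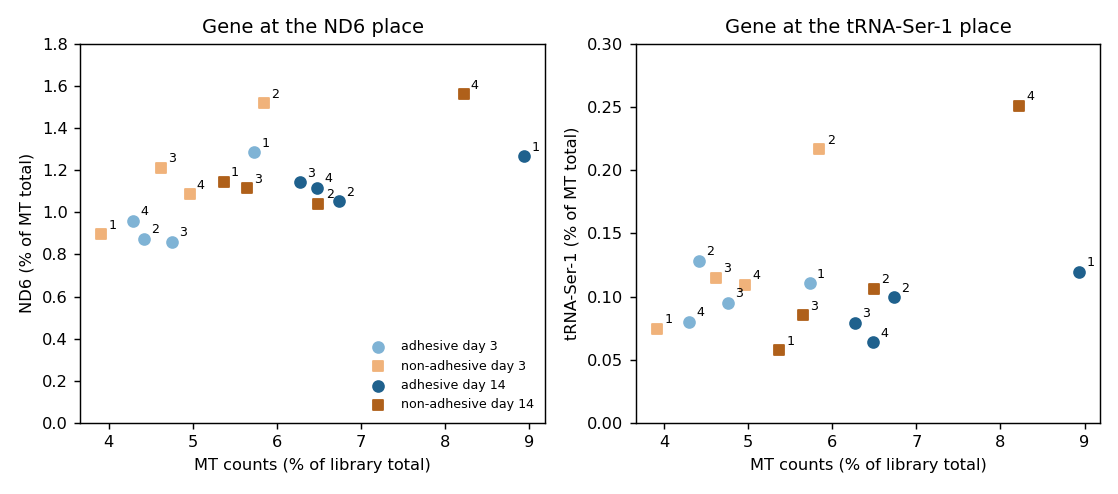
Share of the MT total held by ND6 (left) and tRNA-Ser-1 (right) against the MT share of the library, both in percent, 1 point per library with its replicate number. In each group the library farthest to the right has the highest ND6 share, and the 2 non-adhesive libraries at 5.85% and 8.22% on the x axis stand above the others in both panels.

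Some nuclear genes stood highest or lowest in the libraries with the highest MT share, and these are given as a description only. Of the 10 named nuclear genes of the respiratory chain, 9 had their highest TMM value of the group in that library in all 4 groups, against 12.6% of all genes, among them Atp5f1b, the catalytic beta subunit of the ATP synthase. The other, Cox6a1 of complex IV, was the lowest of its group there in 3 groups. Both named enzymes of the tricarboxylic acid cycle and 4 of 9 genes each for mitochondrial ribosomes and for mitochondrial RNA were also highest in all 4. Of the 4 muscle fibre genes this held for 1, the enolase Eno3, while Mb and Fhl1 were highest in 3 groups and Mybph in 1, and it held for Alas2, which starts haem synthesis in red cell precursors. Of the 7 fibroblast and matrix genes, 4 were the lowest of their group in all 4 groups, against 9.14% of all genes. These were the fibrillar collagens Col1a1, Col3a1 and Col5a2 and the growth factor receptor Pdgfra, whereas Eln was lowest in 3, Dpt lowest in 2 and highest in 1, and Fmod lowest in 0. Col1a1 stood at 517, 860, 337 and 674 CPM in these libraries of adhesive day 3, non-adhesive day 3, adhesive day 14 and non-adhesive day 14. The TMM factors of the same libraries were the lowest of their groups, 0.986, 1.05, 0.668 and 0.619. The part of these levels in the MT share was not tested.

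Nuclear genes of the same pathway could be named for only a few members, since symbols came from the part of the supplementary lists that is held. Of the nuclear subunits of the respiratory chain, 10 were named and tested. Under the adhesive implant, 4 of them passed an adjusted p of 0.05 between days in edgeR, all higher on day 14, against 7.43% of all genes higher at this limit, and 9 of 10 were positive with a median log2 fold change of 0.94. Under the non-adhesive implant, 3 passed, all higher, against 8.67% of all genes higher, with a median of 0.91. The medians over all genes were −0.01 and 0.04.

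Atp5f1b stood at 2498, 1558, 1914 and 1386 CPM in the adhesive libraries of day 3 and at 4880, 3088, 3329 and 3276 on day 14. In the non-adhesive libraries it stood at 1360, 2239, 1642 and 1593 CPM on day 3 and at 2448, 2695, 2660 and 5624 on day 14. Neither pair of groups overlapped, and the log2 fold changes were 0.99 (adjusted p = 0.0401) and 0.97 (adjusted p = 0.0384) in edgeR. Ndufv3, an accessory subunit of complex I, rose by 1.13 and 1.05 and Sdhc, a membrane anchor of complex II, by 0.94 and 0.99. Atp5i, another ATP synthase subunit, rose by 1.43 under the adhesive implant. Cox6a1, the only named nuclear subunit of complex IV, had values of −0.32 and −0.29 that did not pass.

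In the tricarboxylic acid cycle, which feeds the chain, both named enzymes rose under both implants. Only 2 of 14 listed genes could be named, and both were called higher in edgeR, against 4.39% and 5.32% of all genes. Fh, the fumarase, had log2 fold changes of 1.10 and 1.10 and Mdh2, the mitochondrial malate dehydrogenase, 1.26 and 1.33. Of 9 tested genes for transcription and processing of mitochondrial RNA, 0 passed in edgeR under either implant, against 7.43% and 8.67% of all genes passing higher and 7.46% and 8.87% lower, so nothing is read from the count. Their median log2 fold change was 0.07 and 0.01. Tfam, which packages mitochondrial DNA and starts its transcription, had values of 0.07 and −0.25, and Elac2, which cuts tRNA 3′ ends, was the other most abundant of these. Of 9 mitochondrial ribosomal proteins 0 passed, against the same shares of all genes, with medians of 0.17 and 0.02, and the most abundant were Mrpl27 and Mrps7. Ppargc1a, a coactivator that drives the formation of mitochondria, had values of 1.37 (adjusted p = 0.0898, edgeR) and 1.44 (adjusted p = 0.071, edgeR).

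Among the remaining mitochondrial lists, 0 of 6 assembly factors and 0 of 4 import components passed between days under either implant, again against these shares, the most abundant being Cox7a2l and Cox20, and Timm44 and Tomm70. Of 7 carriers of the inner membrane, 1 fell under both implants, Slc25a16, by 1.05 and 1.23 on the log2 scale, against 7.46% and 8.87% of all genes lower at this limit. None of the mitochondrial lists had a member that passed between the implants on either day. Of all genes, 0% passed on day 3, and 0.162% passed higher and 0.111% lower on day 14, so nothing is read from this count.

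**Figure D5:**
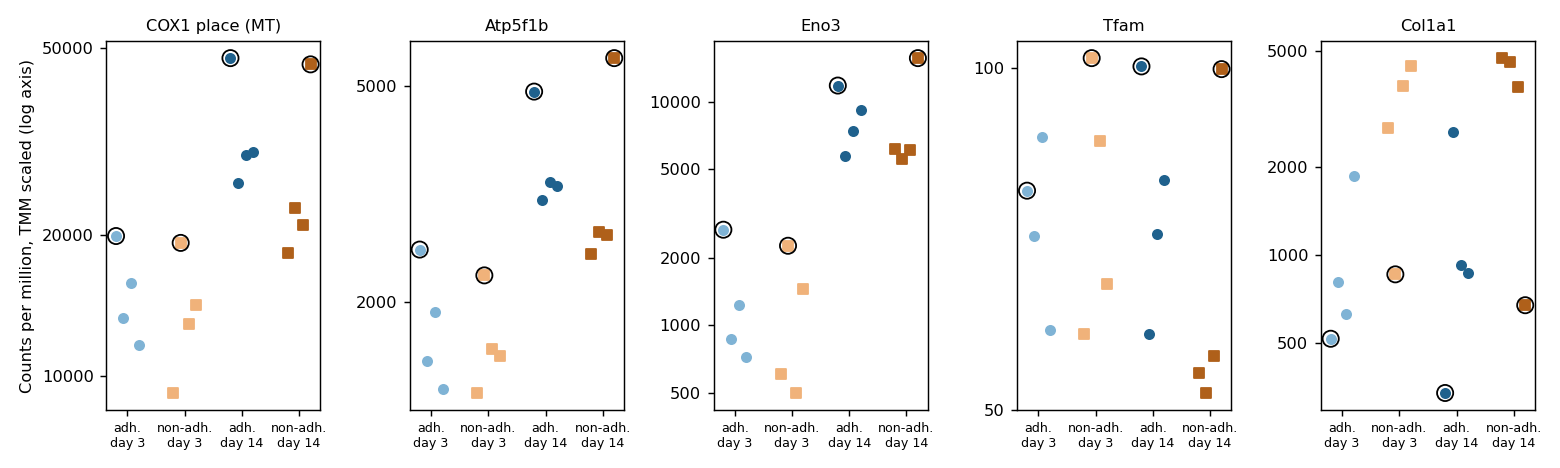
TMM-scaled CPM (log axis, a different range in each panel) of COX1 of the MT chromosome and of the nuclear genes Atp5f1b, Eno3, Tfam and Col1a1, 1 point per library in the 4 groups. Rings mark the library with the highest MT share of each group, which is the highest for COX1 (itself part of the MT share), Atp5f1b and Eno3 and the lowest for Col1a1 in all 4 groups. Tfam has log2 fold changes of 0.07 and −0.25 between the days.

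Markers of the tissue's cells moved between the days too. Of 4 tested genes of skeletal muscle fibres, 2 rose under the adhesive implant, the oxygen store Mb (log2 fold change 3.02, adjusted p = 0.00366, edgeR) and Eno3 (2.63, adjusted p = 0.0101, edgeR), and 1 under the non-adhesive implant, Eno3 (2.79, adjusted p = 0.00618, edgeR). Of all genes, 7.43% and 8.67% passed higher. Mb ranged from 740 to 1191 CPM on day 3 and from 6410 to 9143 on day 14 under the adhesive implant, and from 498 to 2835 and from 2055 to 6225 under the non-adhesive implant. Fhl1 and Mybph, the other muscle genes, did not pass. The median of the 4 was 1.59 and 0.56.

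Of 7 fibroblast and matrix genes, Dpt rose under both implants (1.71 and 2.27) and Eln under the non-adhesive implant (2.16), against the same shares of all genes, and between the implants on day 14 Fmod was lower at the adhesive interface by a log2 fold change of −2.36 (adjusted p = 0.0442, edgeR, against 0.111% of all genes lower). Flt4, the 1 named endothelial gene, rose under the non-adhesive implant by 1.30. The 2 leukocyte genes, Ptprc and Il1b, did not pass between days, nor did the adipocyte gene Adipoq and the erythroid gene Alas2. Most defining markers of these cell types have no symbol here, so the share of each cell type was not measured, and its part in the MT values was not tested.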

How the data were processed

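The data are bulk RNA sequencing of rat abdominal wall, 16 libraries in 4 groups of implant and day. Per the labels and the study's methods, the authors enriched poly(A) RNA with oligo(dT) beads, made reads with bcl2fastq 2.17, and used FastQC for quality, Cutadapt for trimming, STAR for alignment and featureCounts for counting. Each deposited file gives raw whole-number counts of reads over 32552 genes. The strand setting and the treatment of multimapping reads are not given in the sources used here. The paper names DESeq2 for its own tests.

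The members were the 35 genes with the chromosome entry MT. Members and gene lists were chosen with earlier results of these data known. Neither the files nor the tables used here name these genes, so each was assigned to a place in the conserved mammalian order by position, strand and length, after the files were read. These assignments are background knowledge and not names from the files.

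In edgeR 4.0.16 (R 4.3.3), genes were kept by filterByExpr, libraries were scaled by TMM, and robust quasi-likelihood fits gave p values that were adjusted by Benjamini-Hochberg over every gene kept. Each day was fitted alone for the implants, and all 16 libraries together for the days and for their difference between implants. DESeq2 1.42.0 and limma-voom (limma 3.58.1) were alternatives. The SE of a log2 fold change is its size divided by the square root of the quasi-likelihood F. CPM are counts for each 1000000 of the TMM-scaled total, scaled over 16 libraries. Shares were computed with pandas 2.3.3 and figures drawn with matplotlib 3.10.9. The tests were tested on simulated data with known changes. A share of recovered genes required at first for log2 changes of 1 in size was not reached and was dropped, and one for larger changes was kept. Genes with log2 fold changes near 1 can therefore be missed at this number of libraries. No pair of replicates agreed within sampling noise. The genes to name were all protein-coding MT genes, the 3 most abundant, called or filter-edge tRNA genes, and from each list the 4 or fewer with the lowest adjusted p below 0.05 or, failing that, the 2 most abundant. Genes named outside this rule, such as those that follow the MT share, were chosen after their values were seen.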

Additional observations from a re-analysis of the deposited data

Results flagged for a closer look

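The spread within each group of 4 libraries was examined for 19 measures, giving 76 groups. By Dixon's test at the 95% level, 7 values lay far from those of the other 3 libraries of their group. Chance alone flags about 1 in 20 groups. Most of the measures are shares of the same MT total, so they are not independent. Replicate 4 of the non-adhesive implant on day 14 had the highest share of the MT total on the minus strand, 1.96% against 1.34 to 1.40%, and the lowest tRNA-Asn share, 0.0466% against 0.0876 to 0.0927%. Replicate 2 of the non-adhesive implant on day 3 had the highest ATP6 share, 11.9% against 10.9 to 11.0%. On the same day, replicate 1 had the lowest COX1 share, 33.1% against 34.5 to 34.6%, and replicate 4 the highest ND4 share, 0.783% against 0.616 to 0.624%. Replicate 3 of the non-adhesive implant on day 14 had the highest COX1 share, 36.6% against 34.8 to 35.1%. Replicate 1 of the adhesive implant on day 3 had the lowest ND3 share, 1.29% against 1.60 to 1.66%. Of these 7 values, 6 are in non-adhesive libraries.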

How the results depend on the processing

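Between days, the log2 fold changes of the 23 tested MT genes kept their sign under every alternative run, except for 2 tRNA genes that passed under neither implant. These were tRNA-Val, at −0.37 (adhesive) and −0.11 (non-adhesive) with library totals and at −0.30 (without replicate 1 of day 14) to 0.44 on leaving out 1 adhesive library, and tRNA-Ser-1, at −0.28 (without replicate 4 of day 14) to 1.73 on leaving out 1 non-adhesive library. No MT gene was called between implants or for the difference between days under any of them. The number of MT genes called between days, 12 under the adhesive and 6 under the non-adhesive implant, was 7 and 3 with no filter on low counts. It was 6 and 3 with the replicate block, although same-numbered libraries share only a number (correlations of their deviations ran from −0.358 to 0.475 over the comparisons). With library totals and no TMM factor, chosen after the data were seen, it was 0 and 0, with protein-coding medians of 0.62 and 0.45. Leaving out 1 library at a time gave 1 to 16 and 2 to 9 genes. Leaving out both non-adhesive libraries that stood apart, also chosen after the data were seen, gave 2. Shares of all genes called are not given here for the runs with no filter, with the replicate block or without 1 library. Within the MT total, where p values were adjusted over all genes, the 1 call under the adhesive implant became 2 with no limit on the fold change. It became 0 to 2 on leaving out 1 library. The 0 calls under the non-adhesive implant became 1 with DESeq2 and 0 to 1 on leaving out 1 library. The difference in MT share between days, 2.31 and 1.60 points, was 3.83 and 2.83 without the 10 most abundant other genes, 5.01 and 3.64 after TMM scaling, and 1.70 to 2.62 and 1.00 to 1.95 on leaving out 1 library. Its difference between implants on day 14 was 0.0642 to 1.27. The cause of these shifts was not tested. Depth limits the tRNA genes, 12 of which were not tested.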
